A study of Mus musculus with 24 samples.

Results

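The collagen genes were followed in neurons and glia of the mouse hippocampus after kainic acid injection. All genes of the count table with a symbol of the form Col, number, a, number and at least 10 counts in at least 3 of the 12 mRNA libraries were taken, which gave 44 genes of the 53379 in the table. No collagen symbol was lost to the count minimum, and all 44 passed the filter on low counts before testing. They comprised 11 fibrillar chains, 9 fibril-associated chains (FACIT), 6 chains of the basement membrane network (collagen IV), 6 chains of beaded filaments (collagen VI), 4 transmembrane chains, 3 short-chain network collagens, 2 multiplexins, the anchoring fibril chain Col7a1, and Col26a1 and Col28a1, which were placed in no class.

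Collagens are secreted or membrane-bound proteins whose chains wind around each other in a helix. Fibrillar collagens form the load-bearing fibers of connective tissue, FACIT collagens sit on the surface of such fibers, and collagens IV, XV and XVIII belong to the basement membranes that wrap blood vessels and line the brain surface. Brain tissue holds little fibrillar collagen outside vessels and meninges, while several transmembrane and FACIT collagens are known from neurons, where some take part in the formation of synapses.

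Right hippocampi came from adult male C57/BL6N mice that had received a deep cortical injection of kainic acid (KA) or, as sham (SH), of saline next to the right hippocampus 24 hours earlier. KA triggers a status epilepticus, and KA mice without convulsive seizures had been excluded by the authors. The mice of all groups were bought at 8 weeks of age and acclimatized for 4 weeks. Each treatment had 8 mice in 3 pools, of 4 mice in replicate 1 and of 2 mice in replicates 2 and 3, and nuclei of each pool were sorted by the neuronal nuclear protein NeuN into NeuN+ (called neurons) and NeuN- (called glia), which gave 4 groups of 3 libraries. NeuN- nuclei include every cell type without NeuN, vessel cells among them, and all libraries measured polyadenylated RNA of nuclei rather than of whole cells.

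Total counts ranged from 7769400 to 40364768 per library, of which the 44 collagen genes took 0.116 to 0.302%. The libraries of replicate 3 had counts in 36165 to 42160 genes, against 40660 to 47748 in the other libraries, and often held the highest collagen values of their group. SH glia replicate 1 and KA glia replicate 2 had been amplified from about 0.05 ng of RNA instead of 1 ng. Of the marker genes, all 6 neuronal genes were higher in NeuN+ libraries, and all 6 astrocyte, 6 microglia, 6 oligodendrocyte and 5 oligodendrocyte precursor genes were higher in NeuN- libraries. In pooled nuclei, fewer nuclei of a type and less RNA per nucleus cannot be told apart.

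The 250 bases before the RefSeq start of the 2 collagen genes with the largest changes past the threshold after KA are shown, as the sequence next to that start. Both lie on the plus strand of chromosome 4 (RefSeq, GRCm38.p6), Col27a1 at chr4:63215162-63215411 and Col16a1 at chr4:130047590-130047839. The RefSeq start of Col16a1 is that of GENCODE, whereas that of Col27a1 lies 1408 bases downstream of the GENCODE gene start (63214004), so that its window is inside the GENCODE gene. Capitals mark a GC box (GGGCGG) 85 bases before the RefSeq start of Col27a1, and a GC box 159 bases and a CCAAT box 113 bases before the start of Col16a1.
Col27a1: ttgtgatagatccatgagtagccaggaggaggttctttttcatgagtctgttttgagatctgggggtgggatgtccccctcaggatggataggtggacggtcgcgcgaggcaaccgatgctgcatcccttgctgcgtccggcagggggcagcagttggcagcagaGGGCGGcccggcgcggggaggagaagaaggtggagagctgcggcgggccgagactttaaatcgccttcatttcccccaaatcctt
Col16a1: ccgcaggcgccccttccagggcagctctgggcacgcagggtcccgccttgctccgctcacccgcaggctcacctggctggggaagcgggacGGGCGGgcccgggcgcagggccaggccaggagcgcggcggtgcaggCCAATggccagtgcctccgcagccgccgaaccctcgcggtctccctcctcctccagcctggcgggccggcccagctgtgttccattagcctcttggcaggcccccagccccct
The window of Col27a1 had 59.6% G and C and that of Col16a1 75.6%, and exons of another gene on the opposite strand reach into the latter. RefSeq start windows of 300 bases (250 before to 50 after the start) were matched for 35 of the 44 genes, in 38 windows, and their median GC content was 59.8% against 52.7% over all 32851 windows. On either strand, GGGCGG was found in 23 of the 38 collagen windows against 35.7% of all windows, and CCAAT in 13 against 37.4%. The AP-1 motif TGANTCA, the binding sequence of Fos and Jun proteins, stood in 1 collagen window (Col6a1) against 7.81% of all. TATAAA stood in 5 collagen windows against 13.6% of all, and the CRE motif TGACGTCA in 1 (Col24a1) against 1.79%. None of these letters overlapped another motif in the printed windows, and a match describes the sequence only.

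Neurons and glia held different collagens. Chains of collagens IV and VI led in neurons, whereas Col9a3 led in SH glia and Col16a1 in KA glia. At an FDR below 0.05, 11 of the 44 genes were higher in neurons than in glia and 9 were lower, against 11.6% and 6.91% of the 37598 genes tested. The median difference (logFC, log2 of neurons over glia) was -0.09 over the collagens and -0.15 over all genes tested. NeuN+ and NeuN- libraries of a pool come from the same mice, and with the pool as a block 13 collagens were higher and 10 lower, against 19.7% and 9.84% of all genes. The genes added by the block were Col6a3 (FDR = 0.040) and Col26a1 (FDR = 0.020) in neurons and Col3a1 (FDR = 0.015) in glia.

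Levels are given as CPM, counts scaled to the effective library size, and levels of different genes were compared as CPM per kb of exon. In neurons, Col4a2 had the highest level (81.3 ± 45.0 CPM per kb, SD, n = 6), followed by Col6a1 (60.8 ± 25.9) and Col4a1 (51.5 ± 25.6). Their ranges overlapped, although Col4a2 was above Col4a1 in every neuronal library. Col19a1 came next with 25.3 ± 11.7 CPM per kb. Over all 6 glial libraries, Col16a1 had the highest mean (72.1 ± 81.3 CPM per kb, SD), before Col9a3 (42.8 ± 17.3) and Col5a3 (15.7 ± 8.76), but this order was not that of SH glia. There Col9a3 (49.7 ± 21.6 CPM per kb, SD, n = 3) was followed by Col11a2 (22.9 ± 14.1), Col16a1 (20.3 ± 14.1) and Col5a3 (13.1 ± 8.61). The ranges of the last 3 overlapped, although Col5a3 was the lowest of them in each replicate. In KA glia the order was Col16a1 (124 ± 90.8 CPM per kb, SD, n = 3), Col9a3 (35.9 ± 11.9) and Col5a3 (18.3 ± 9.87). The lowest collagen in both fractions was Col8a2, a short-chain network collagen, with 0.143 CPM per kb in neurons and 0.194 in glia.

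**Figure D1:**
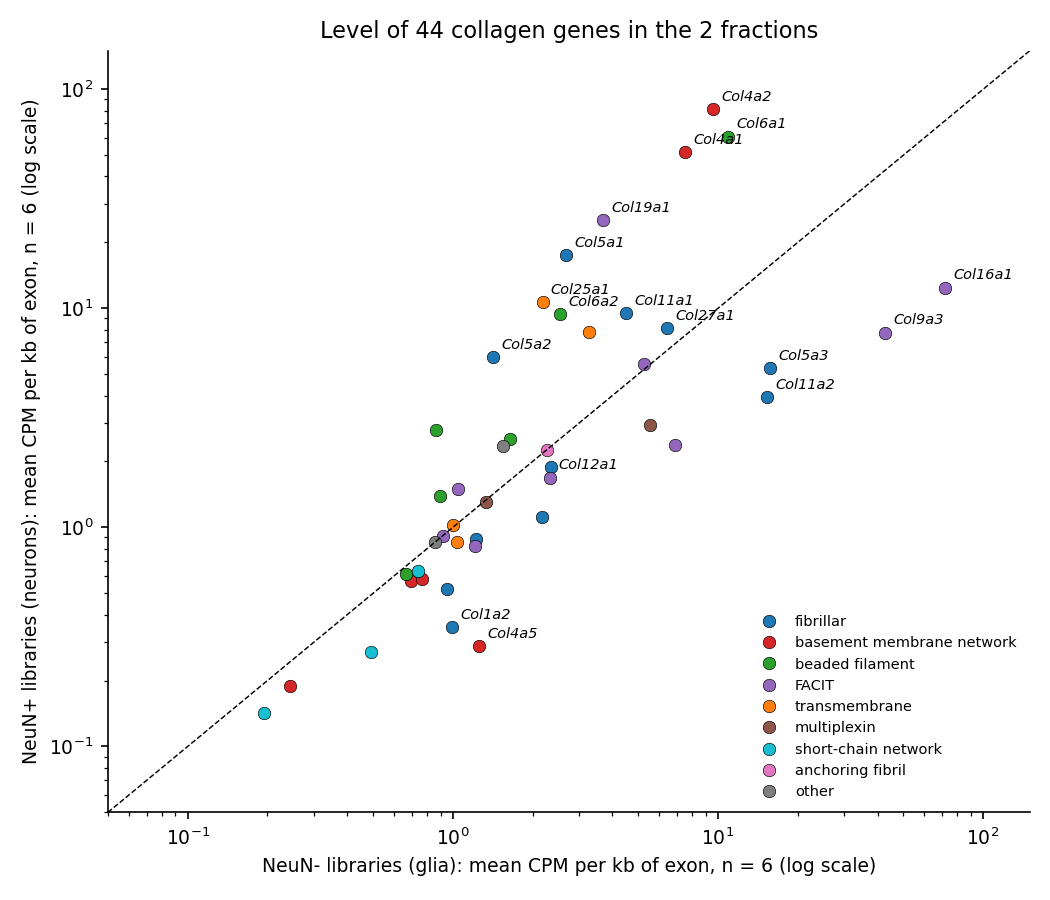
Each point is a collagen gene, with its mean level in the 6 NeuN- libraries on the x axis and in the 6 NeuN+ libraries on the y axis, both in CPM per kb of exon on log scales, coloured by class; the dashed line marks equal levels. Col4a2, Col6a1 and Col4a1 lie far above the line at 81.3, 60.8 and 51.5 CPM per kb in neurons, and Col16a1 and Col9a3 far below it at 72.1 and 42.8 CPM per kb in glia.

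Of the basement membrane network, Col4a1 and Col4a2, whose chains assemble in the same molecules, were higher in neurons. Col4a1 (ENSMUSG00000031502.11) ranged from 212 to 680 CPM in neurons (median 301) and from 27.8 to 112 CPM in glia (median 48.7). The lowest neuronal library thus lay above the highest glial one, and the difference was 2.78 (SE 0.41, FDR = 0.00011). Col4a2 (ENSMUSG00000031503.13) ranged from 280 to 956 CPM in neurons (median 417) and from 21.6 to 119 CPM in glia (median 58.0), with a difference of 3.09 (SE 0.50, FDR = 0.00023). Both stayed past the threshold in each of the 23 alternative fits.

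The other collagen IV chains were low. Col4a5, an X-linked chain, went the other way, with 1.31 to 2.39 CPM in neurons and 6.05 to 11 CPM in glia, and was lower in neurons by a logFC of -2.13 (SE 0.32, FDR = 0.00013). Col4a3, Col4a4 and Col4a6 had medians between 1.38 and 9.29 CPM, and their differences of -0.20, -0.39 and -0.28 did not pass the threshold. Collagen IV genes stand in head-to-head pairs with start sites 21 bases apart for Col4a1 and Col4a2, 72 for Col4a3 and Col4a4 and 1309 for Col4a5 and Col4a6. Per kb, the ratio of Col4a2 to Col4a1 was 1.28 to 1.91 over the neuronal and 0.821 to 1.63 over the glial libraries. Col4a3 to Col4a4 gave 0.590 to 2.17 in neurons and 0.535 to 1.52 in glia, and Col4a5 to Col4a6 gave 1.23 to 2.11 and 2.63 to 27.1. In glia, the ratio of Col4a5 to Col4a6 thus lay above those of the other pairs. Col4a6 was near the floor there, and the 27.1 came from SH glia replicate 1, a low-input library with 6 counts of Col4a6.

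Of the beaded filament chains, Col6a1, Col6a2 and Col6a4 were higher in neurons. Col6a1 (ENSMUSG00000001119.7) ranged from 145 to 432 CPM in neurons (median 224) and from 6.99 to 81.3 CPM in glia (median 55.3), without overlap, and the difference was 2.47 (SE 0.51, FDR = 0.0020). Col6a2, its partner chain, ranged from 45.6 to 111 CPM in neurons and from 7.88 to 33.8 CPM in glia (logFC 1.89, SE 0.37, FDR = 0.0012). Col6a4 differed by 1.61 (FDR = 0.0087), but not without SH glia replicate 1 (FDR = 0.16) or without the libraries of replicate 3 (FDR = 0.061). Col6a3 had a logFC of 0.65 (FDR = 0.21) without the block, and Col6a5 (0.57) and Col6a6 (-0.15) did not pass.

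Markers of vessel and stromal cells were read in the same libraries. The 8 endothelial genes summed to 13.9 to 32.8 CPM in neurons and 11.8 to 59.3 CPM in glia, and 0 of 8 were higher in neurons while Ly6c1 was lower (edgeR, 4 with an unadjusted p under 0.05 in either direction). Of the 9 pericyte and smooth muscle genes, with sums of 19.4 to 37.6 CPM in neurons and 24.5 to 85.8 CPM in glia, 0 were higher and Pdgfrb and Rgs5 were lower in neurons (3 with an unadjusted p under 0.05). Apart from Tagln, which was at 0 in at least 1 glial library, every gene of both lists had counts in all 12 libraries. Of the 11 genes of meningeal and perivascular fibroblasts, 2 (Dcn and Ogn) were higher and 3 lower in neurons, with sums of 29.9 to 126 CPM in neurons and 34.6 to 91.3 CPM in glia. For all 3 lists, the shares of all genes tested were 11.6% higher and 6.91% lower in neurons. In SH, the fibroblast sum was higher in neurons than in glia in each replicate (126, 77.8 and 78.7 against 91.3, 61.2 and 52.3 CPM). In KA, it was lower in neurons than in glia in each replicate (55.8, 41.8 and 29.9 against 83.3, 66.4 and 34.6 CPM). The part of these cells in the levels of collagens IV and VI was not tested.

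**Figure D2:**
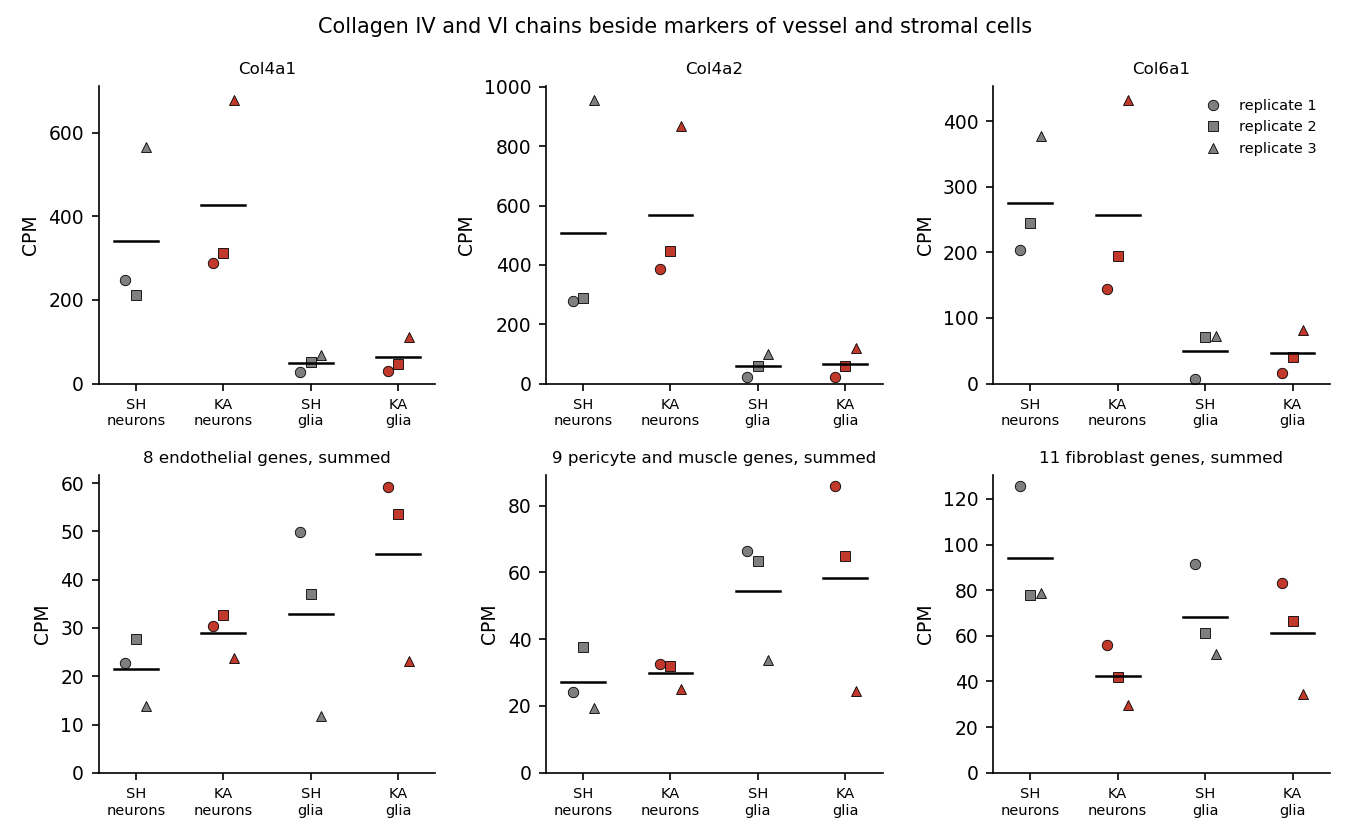
The upper panels plot CPM of Col4a1, Col4a2 and Col6a1 in each library of the 4 groups, with a line at the group mean and symbols for the replicate number; the lower panels plot the summed CPM of 8 endothelial, 9 pericyte and smooth muscle and 11 fibroblast genes in the same libraries. The collagens are higher in neurons, with Col4a1 at 212 to 680 CPM against 27.8 to 112 CPM in glia, while the endothelial sum is 13.9 to 32.8 CPM in neurons and 11.8 to 59.3 CPM in glia.

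Among fibrillar chains, Col5a1, Col5a2 and Col11a1 were higher in neurons, and Col1a2, Col2a1, Col5a3 and Col11a2 were higher in glia. Chains of one collagen type were thus divided between the fractions. Col5a1, a chain that limits the width of collagen I fibers, ranged from 85.6 to 267 CPM in neurons and from 10.8 to 40.4 CPM in glia (logFC 2.64, SE 0.34, FDR = 3.5e-05). Col5a3, the rarest chain of the same type in most tissues, ranged from 14.3 to 76.2 CPM in neurons and from 43.1 to 202 CPM in glia (logFC -1.65, SE 0.38, FDR = 0.0045). Per kb, the ratio of Col11a1 to Col11a2 was 1.54 to 5.71 in neurons and 0.126 to 1.01 in glia, without overlap. Col11a1 itself (logFC 1.09, FDR = 0.037) and Col2a1 (-0.92, FDR = 0.027) were near the threshold. Leaving out SH neurons replicate 3, KA neurons replicate 2 or 3, SH glia replicate 1 or 2, or KA glia replicate 1 or 2 ended the call of Col11a1 (FDR up to 0.37), and leaving out SH or KA neurons replicate 1, SH neurons replicate 3, KA neurons replicate 2, SH glia replicate 3, or KA glia replicate 2 or 3 ended that of Col2a1 (FDR up to 0.091).

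The main chains of connective tissue were scarce. Col1a1 ranged from 8.84 to 21.2 CPM in neurons and from 4.74 to 23.7 CPM in glia (logFC -0.33, FDR = 0.61). Col1a2, its partner in collagen I, ranged from 2.00 to 6.21 CPM in neurons and from 5.89 to 17.3 CPM in glia (logFC -1.52, SE 0.34, FDR = 0.0035). Col3a1, a fibrillar collagen of vessel walls, had 2.41 to 7.87 CPM in neurons and 4.54 to 15.6 CPM in glia (logFC -0.80, FDR = 0.13).

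FACIT and transmembrane chains were divided as well. Col19a1, which interneurons are known to make, had 97.5 to 323 CPM in neurons and 12 to 44 CPM in glia (logFC 2.79, SE 0.34, FDR = 2e-05). The transmembrane collagens Col25a1 (logFC 2.26, FDR = 4e-05) and Col23a1 (1.26, FDR = 0.00049) were higher in neurons too, and Col13a1 and Col17a1 did not pass. Col9a3 and Col9a2, cartilage FACIT chains of 1 collagen type, were higher in glia. Col9a3 had 96.3 to 249 CPM in glia and 10.7 to 44.9 CPM in neurons (logFC -2.46, SE 0.40, FDR = 0.00023), and 6.07% of its exon bases are shared with Tcfl5 on the opposite strand, whose reads the counting did not separate by strand. Col18a1, the basement membrane collagen that carries endostatin, was lower in neurons (logFC -0.83, FDR = 0.021), but not without SH neurons replicate 1, KA neurons replicate 1 or SH glia replicate 3 (FDR = 0.069, 0.079 and 0.059).

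After KA, Col27a1 rose in neurons, and Col16a1 and Col12a1 rose in glia, and no collagen fell past the threshold in either fraction. In neurons, 1 of the 44 genes was higher at an FDR below 0.25 and 0 were lower, against 0.279% and 0.0612% of all genes tested (edgeR, 2 collagens with an unadjusted p under 0.05; DESeq2 gave 1 higher and 0 lower). In glia, 2 were higher and 0 lower, against 0.442% and 0.306% (edgeR, 8 with an unadjusted p under 0.05; DESeq2 gave 5 higher and 1 lower). The median logFC of the collagens was 0.24 in neurons and 0.33 in glia, beside 0.00048 and 0.14 over all genes tested. A positive logFC was found for 29 of 44 in neurons and 28 in glia, against 18814 and 22028 of the 37598 genes tested. By class, the median logFC in glia ran from -0.15 for the fibrillar chains to 0.92 for the short-chain network collagens, apart from the lone Col7a1. In neurons it ran from -0.20 for the transmembrane chains to 0.60 for the short-chain network collagens, with 0.45 for the fibrillar chains, 9 of 11 of which had a positive logFC. The short-chain class had 3 genes of low counts. Its medians were the values of Col8a2 in glia (SE 1.05, 2 to 29 counts per library) and of Col10a1 in neurons (SE 0.70). The FACIT chains together had 395, 313 and 626 CPM in SH and 678, 806 and 1880 CPM in KA glia, most of which was Col16a1 in KA. Without Col16a1, the other 8 summed to 317, 228 and 380 CPM in SH and 265, 250 and 340 CPM in KA glia, which overlapped.

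With the replicate number as a block, 3 collagens were higher in neurons and 0 lower, against 1.94% and 1.11% of all genes, and 7 were higher and 2 lower in glia, against 3.47% and 4.17%. Without any fit, KA libraries lay above all SH libraries for 2 collagens in neurons (Col27a1 and Col6a5) and for 7 in glia (Col3a1, Col7a1, Col10a1, Col12a1, Col16a1, Col18a1 and Col20a1), against 5.27% and 3.61% of all genes tested. Col15a1 was the only collagen whose KA libraries all lay below the SH libraries, in glia, against 3% of all genes, and no collagen did so in neurons, against 4.45%.

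**Figure D3:**
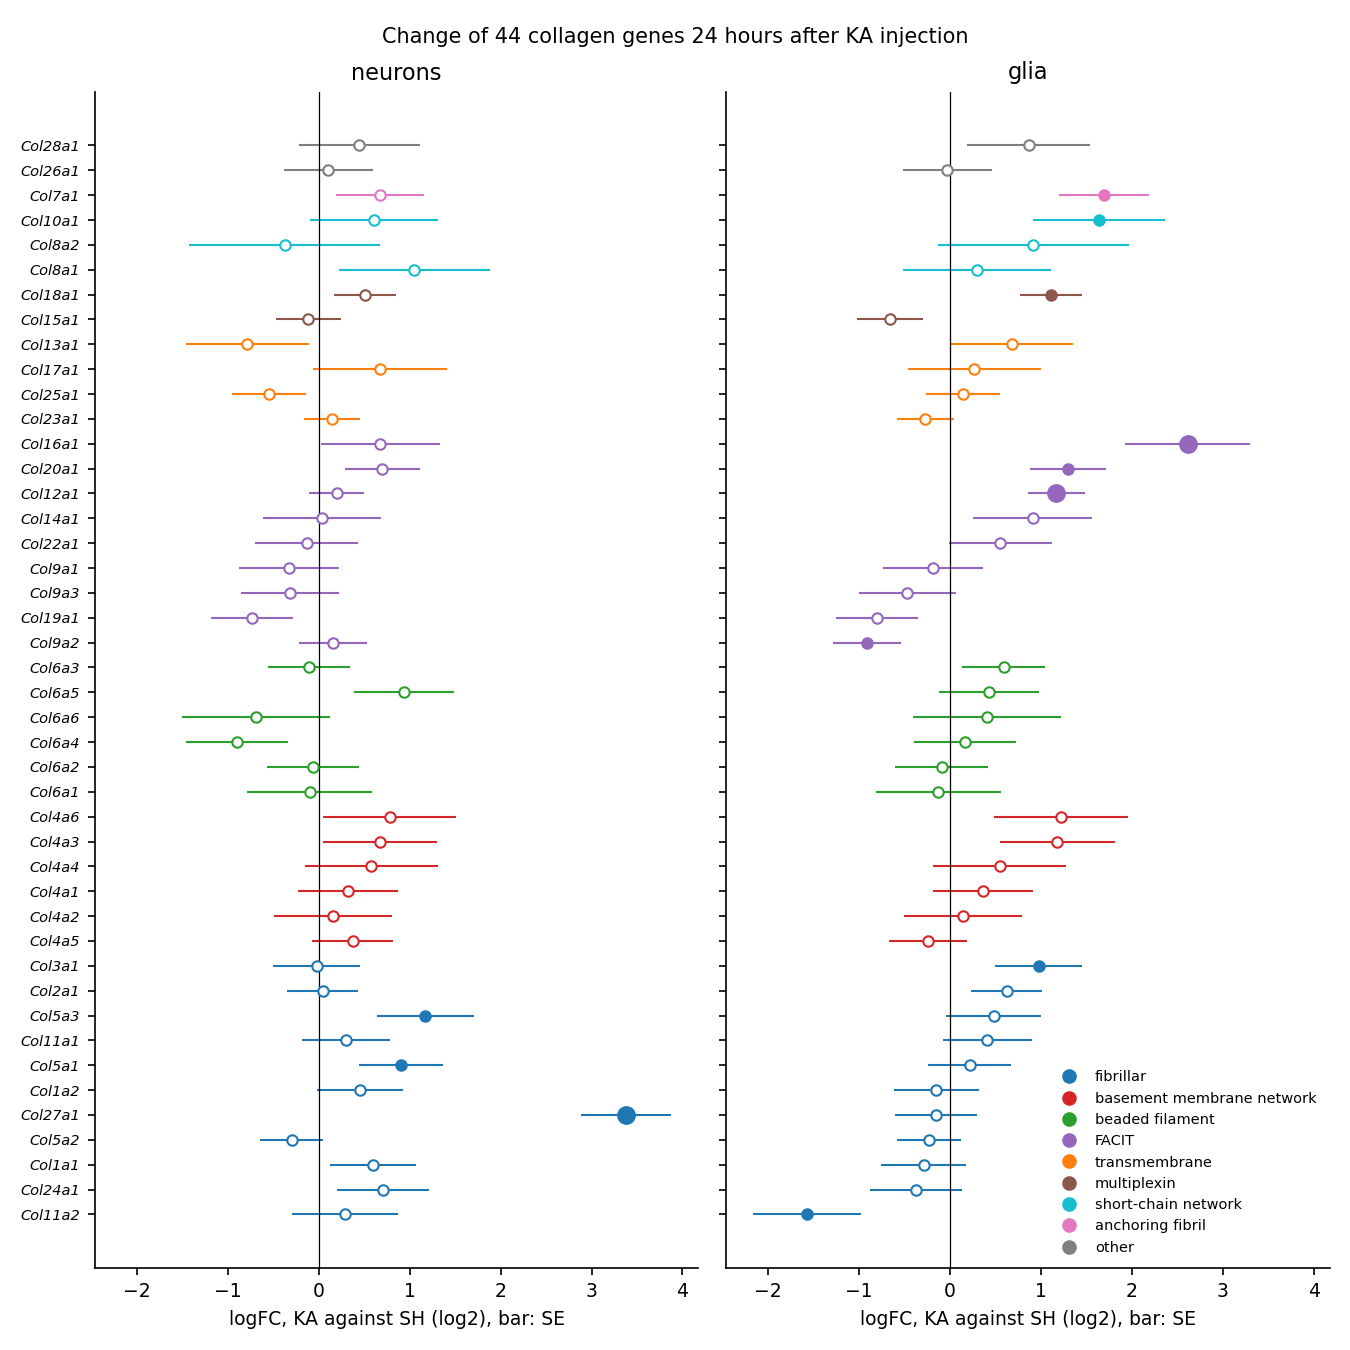
The change after KA (logFC, log2 of KA over SH, with bars for the SE) of the 44 collagens, in neurons on the left and glia on the right, coloured by class. Large filled points passed an FDR of 0.25, small filled points were added with the replicate number as a block, and open points passed in neither of these 2 fits; Col27a1 stands out in neurons at 3.38, and Col16a1 and Col12a1 in glia at 2.61 and 1.17.

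Col27a1 (ENSMUSG00000045672.15, GRCm38 chromosome 4, 63214004 to 63334991, plus strand) encodes a fibrillar collagen best known from cartilage. In neurons it had 16.3, 23.9 and 15.3 CPM in SH replicates 1, 2 and 3, and 88.3, 186 and 302 CPM in KA. All KA libraries lay above all SH libraries, and the SH libraries were close together. The mean of the 3 libraries increased from 18.5 ± 4.67 (SD) to 192 ± 107 CPM, which corresponds to 3.38 on the log2 scale (SE 0.50, FDR = 0.025). The call held in all 24 alternatives, with FDR up to 0.24.

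In glia, Col27a1 had 68.7, 59.2 and 136 CPM in SH and 55.1, 72.5 and 110 CPM in KA, with a logFC of -0.15 (SE 0.45, FDR = 1.00). Groups overlapped there, and SH glia had more Col27a1 than SH neurons in every replicate. After KA the order was turned, with neurons above glia in each of the 3 replicates. Beside these values, astrocyte genes summed to 148, 170 and 499 CPM in SH and 194, 291 and 629 CPM in KA neurons, higher in each pair of replicates although the groups overlapped. Oligodendrocyte genes summed to 310 to 1252 and 138 to 686 CPM and microglia genes to 23.0 to 56.1 and 20.2 to 62.1 CPM, with overlap and with pairs in both directions. The part of these markers in the increase of Col27a1 was not tested. As a share of all collagen CPM, Col27a1 made up 0.917% in SH neurons and 6.76% in KA neurons.

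Col16a1 (ENSMUSG00000040690.15, GRCm38 chromosome 4, 130047840 to 130099283, plus strand) encodes a FACIT collagen that binds fibers and cell-surface integrins. In glia it had 77.7, 85.9 and 246 CPM in SH replicates 1, 2 and 3, and 414, 557 and 1539 CPM in KA. Every KA library lay above every SH library, and replicate 3 was highest under both treatments. The mean of the 3 libraries increased from 137 ± 95.2 (SD) to 837 ± 613 CPM (logFC 2.61, SE 0.69, FDR = 0.23), and with the replicate block the FDR was 3.0e-05. Col16a1 made up 9.85% of all collagen CPM in SH glia and 38.5% in KA glia.

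The call of Col16a1 without the block was narrow: 8 of the 12 single libraries ended it when left out. These were SH glia replicates 1 and 2 (FDR = 0.63 and 0.35), KA glia replicates 1, 2 and 3 (FDR = 0.27, 0.54 and 0.40), SH neurons replicates 1 and 2 (FDR = 0.29 and 0.30) and KA neurons replicate 2 (FDR = 0.34), while the logFC stayed between 1.82 and 3.35. In neurons, Col16a1 had 41.2, 46.2 and 106 CPM in SH and 41.3, 69.8 and 199 CPM in KA, with a logFC of 0.68 (SE 0.65, FDR = 1.00) that was -0.21 without KA neurons replicate 3.

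Col12a1 (ENSMUSG00000032332.17, GRCm38 chromosome 9, 79598991 to 79718831, minus strand), a FACIT collagen of tendon and other load-bearing tissue, had 23.6, 27.1 and 14.8 CPM in SH glia and 48.2, 43.9 and 55.3 CPM in KA glia. The groups did not overlap, and the mean rose from 21.9 ± 6.34 to 49.1 ± 5.72 CPM (SD, n = 3). Its logFC was 1.17 (SE 0.31, FDR = 0.23), or 1.21 with the replicate block (FDR = 0.024). Without the block, the call was lost when any library other than SH glia replicates 1 and 2 was left out, with a logFC of 0.95 to 1.24 and FDR of 0.26 to 1.00 in those fits. In neurons it had 29.4, 20.2 and 22.2 CPM in SH and 26.6, 26.2 and 29.3 CPM in KA, which overlapped (logFC 0.20, FDR = 1.00).

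Beside these changes, oligodendrocyte and precursor marker sums of the glial fraction did not overlap between the treatments, whereas the other sums given here did. Summed over 6 genes, oligodendrocyte markers were at 25316, 13947 and 29206 CPM in SH glia and 10453, 7326 and 13642 CPM in KA glia, and precursor markers (5 genes) at 1317, 926 and 1581 against 665, 433 and 722 CPM. All 11 of these genes had a negative logFC, of which 1 precursor gene passed the threshold. Over all genes tested, 22028 of 37598 had a positive logFC in glia, and 0.306% were lower past the threshold. Microglia markers (6 genes) summed to 1093, 702 and 1685 CPM in SH and 481, 646 and 1004 CPM in KA glia, and 1 of them was lower past the threshold. The endothelial sum was 49.8, 37.1 and 11.8 CPM in SH and 59.3, 53.5 and 23.1 CPM in KA glia, and that of leukocyte genes 72.8, 81.0 and 82.2 against 81.6, 108 and 118 CPM. Astrocyte markers (6 genes) summed to 1873, 1461 and 2150 CPM in SH and 1864, 1016 and 1508 CPM in KA glia. The pericyte and smooth muscle sum was 66.4, 63.4 and 33.8 against 85.8, 64.8 and 24.5 CPM. Neuronal markers (6 genes) summed to 350, 964 and 1106 against 242, 536 and 954 CPM. The part of these cell types in the collagen results was not tested.

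**Figure D4:**
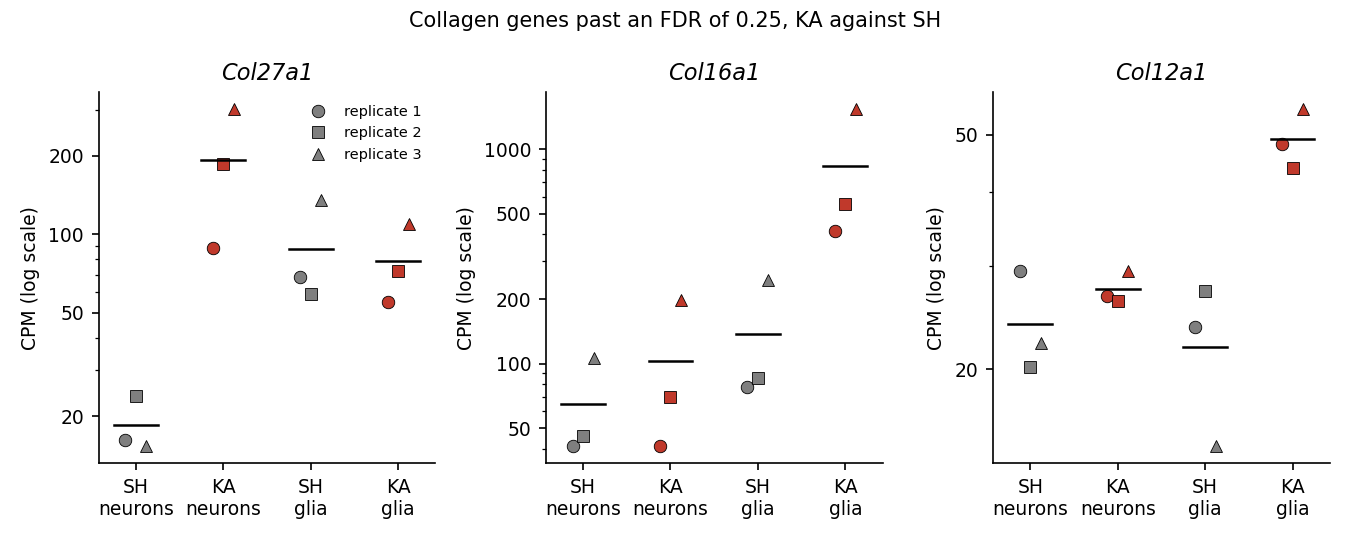
CPM on a log scale of the 3 collagens past an FDR of 0.25, in each library of the 4 groups, with a line at the group mean and symbols for the replicate number. Col27a1 is at 88.3 to 302 CPM in KA neurons against 15.3 to 23.9 CPM in SH neurons, whereas Col16a1 (414 to 1539 against 77.7 to 246 CPM) and Col12a1 (43.9 to 55.3 against 14.8 to 27.1 CPM) separate in glia.

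Whether the change after KA differed between the fractions was tested as the logFC in glia minus that in neurons. In the fit without a block, 0 of the 44 collagens passed, as did 0% of all genes tested (edgeR, 3 collagens with an unadjusted p under 0.05; DESeq2 gave 1, Col27a1). The difference was -3.53 for Col27a1 (SE 0.66, FDR = 0.44), 1.93 for Col16a1 (SE 0.93, FDR = 1.00) and 0.97 for Col12a1 (SE 0.43, FDR = 1.00). With the pool as a block, Col16a1 changed more in glia (2.08, SE 0.31, FDR = 0.022) and Col27a1 more in neurons (-3.35, SE 0.42, FDR = 0.0084), against 0.157% and 0.314% of all genes in these directions. Col12a1 did not pass in that fit either (FDR = 0.51). With the replicate number as the block instead, Col11a2 passed as well (-2.02, SE 0.39, FDR = 0.049; FDR = 0.30 with the pool), and 1 collagen was higher and 2 were lower, against 0.112% and 0.29% of all genes.

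Further fibrillar chains passed with the replicate block but not in the fit without it. In neurons, Col5a3 had 15.5, 14.3 and 37.1 CPM in SH and 31.2, 43.4 and 76.2 CPM in KA, higher in each pair of replicates although the groups overlapped. Its logFC was 1.17 (FDR = 1.00), or 1.22 with the block (SE 0.24, FDR = 0.013). Col5a1 had 91.8, 85.6 and 133 CPM in SH and 126, 189 and 267 CPM in KA neurons, again higher in each pair, with 0.91 (FDR = 1.00) and 0.87 with the block (FDR = 0.11). Col5a2, the remaining chain of collagen V, had a logFC of -0.30 in neurons, and in glia the 3 chains had values of 0.22, -0.23 and 0.48, none of which passed.

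Col11a2 had the most negative logFC of the collagens in glia. It had 141, 69.6 and 261 CPM in SH and 56.8, 30.9 and 71.3 CPM in KA, lower in each pair, and the groups overlapped by a narrow margin in SH replicate 2 and KA replicate 3. The logFC was -1.57 (FDR = 0.73), or -1.45 with the block (SE 0.27, FDR = 0.0050). Col3a1 had 5.95, 8.47 and 4.54 CPM in SH and 15.6, 11.2 and 10.4 CPM in KA glia (logFC 0.97, FDR = 1.00; block 0.99, FDR = 0.19). The collagen I chains did not pass in either fraction, with logFC of 0.60 (neurons) and -0.29 (glia) for Col1a1 and of 0.45 and -0.15 for Col1a2.

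FACIT chains other than Col16a1 and Col12a1 included Col20a1, a little-studied member, with 12.4, 17.1 and 17.3 CPM in SH and 33.5, 28.5 and 53.2 CPM in KA glia. The groups did not overlap, and the logFC was 1.30 (FDR = 0.49), or 1.26 with the block (FDR = 0.015). Col9a2 had 23.5, 16.4 and 43.7 CPM in SH and 14.7, 13.0 and 16.6 CPM in KA glia, lower in each pair (logFC -0.92, FDR = 0.84; block -0.80, FDR = 0.23). Col9a3 had a logFC of -0.47 in glia and did not pass in either fit.

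Of the remaining classes, Col7a1, the chain of the fibrils that anchor skin to its basement membrane, had 7.24, 20.5 and 5.44 CPM in SH and 27.6, 34.7 and 44.6 CPM in KA glia. All KA libraries were higher than all SH libraries (logFC 1.69, FDR = 0.35; block 1.90, SE 0.37, FDR = 0.0070). Col18a1 had 23.6, 20.8 and 29.6 CPM in SH and 37.5, 51.7 and 70.5 CPM in KA glia, also without overlap (logFC 1.11, FDR = 0.42; block 1.08, FDR = 0.028). Col10a1, the collagen of growth-plate cartilage, was low, with 15 to 105 counts per library in glia, at 1.53, 1.41 and 0.448 CPM in SH and 3.65, 4.02 and 2.80 CPM in KA (logFC 1.64, FDR = 0.97; block 1.78, FDR = 0.11). With Col5a1 and Col5a3 in neurons, these 7 glial genes were the calls that the block added. Of them, Col7a1, Col11a2, Col18a1 and Col20a1 also passed in glia without a block in DESeq2 and with at least 10 counts in every library, and Col7a1 also with edgeR 4 dispersions and without SH glia replicate 2.

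**Figure D5:**
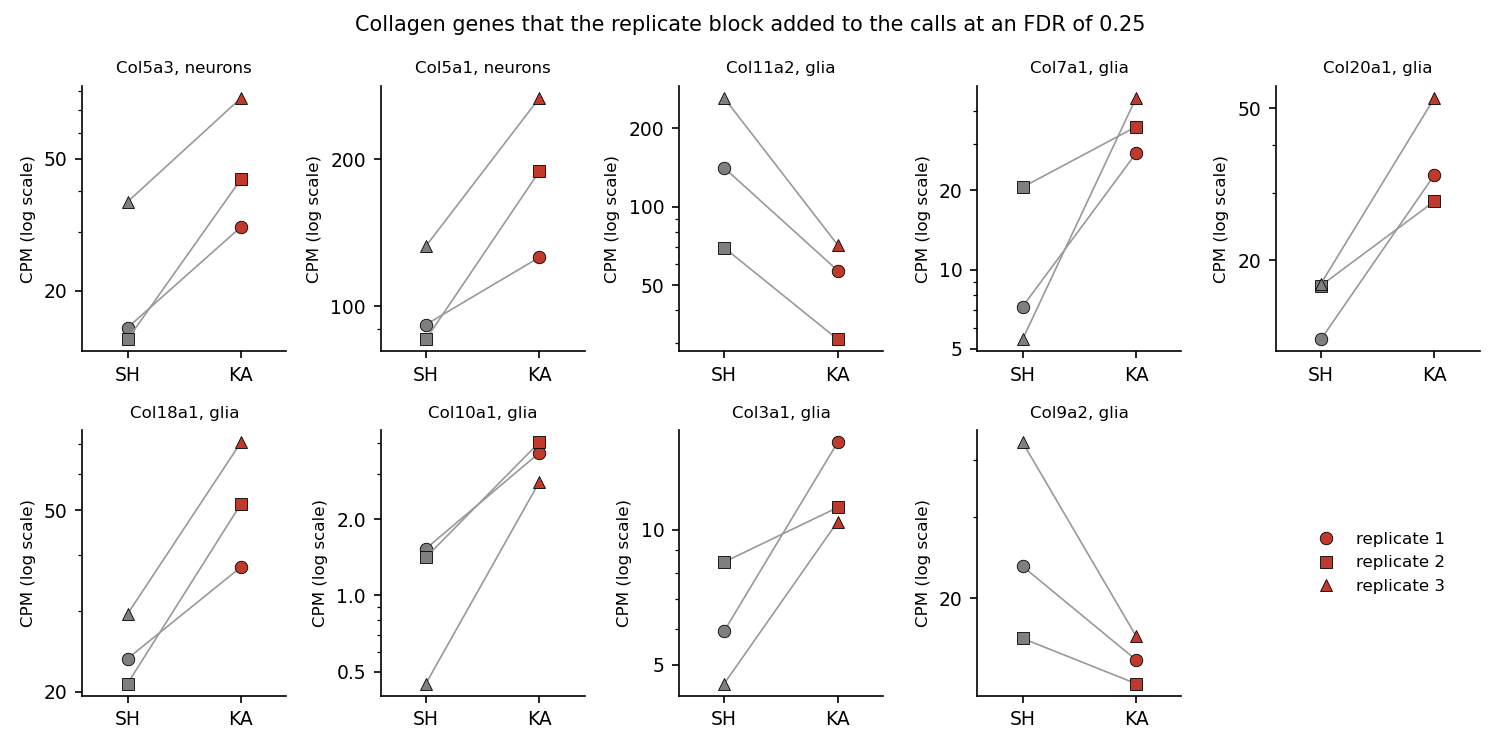
CPM on a log scale of the collagens that the replicate number as a block added to the calls at an FDR of 0.25, with a line joining the SH and KA library of the same replicate number in neurons or glia. Each gene moves in the same direction in all 3 pairs, for example Col11a2 from 69.6 to 261 CPM in SH glia to 30.9 to 71.3 CPM in KA glia. The genes were picked by that block, which favours a like change in the pairs, so their agreement is no separate result.

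Collagens IV and VI, the most abundant in neurons, did not pass after KA in any of the fits run. Col4a1 had 247, 212 and 565 CPM in SH neurons and 289, 313 and 680 CPM in KA neurons (logFC 0.32, SE 0.55, FDR = 1.00). It had 27.8, 50.4 and 68.8 CPM in SH glia and 29.7, 47.0 and 112 CPM in KA glia (0.36, SE 0.55, FDR = 1.00). In both fractions the groups overlapped, with replicate 3 highest. Col4a2 had 280, 290 and 956 CPM in SH neurons and 387, 447 and 870 CPM in KA neurons (0.16, SE 0.65), and Col6a1 203, 245 and 377.2 against 145, 194 and 432 CPM (-0.10, SE 0.69). All 6 collagen IV chains had a positive logFC in neurons, between 0.16 and 0.78, and 5 of 6 in glia. Of the 37598 genes tested, 18814 had a positive logFC in neurons and 22028 in glia. Without a block, none of the changes of collagens IV and VI reached 2 SE. With the replicate block, Col6a5 (0.91, SE 0.35, FDR = 0.40) and Col4a4 (0.87, SE 0.42, FDR = 0.64) did in neurons. In glia, Col4a3 (1.03, SE 0.42, FDR = 0.27) and Col6a5 (0.73, SE 0.36, FDR = 0.41) did with that block.

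Genes that make, cut, bind or degrade collagens were described from lists. Of 20 genes for chain modification and folding, 0 passed in neurons or glia (edgeR, 3 and 1 with an unadjusted p under 0.05), although with the replicate block P4ha3, a subunit of the prolyl hydroxylase that stabilizes the helix, was higher in both (FDR = 0.076 and 0.037), P3h2 was higher in glia (FDR = 0.21) and P3h3 was lower in neurons (FDR = 0.075). Of 14 genes for propeptide cleavage and cross-linking, 1 was higher in neurons and 1 in glia. The shares of all genes tested were 0.279% (higher) and 0.0612% (lower) in neurons and 0.442% and 0.306% in glia, or 1.94% and 1.11%, and 3.47% and 4.17%, with the block, for this and the following lists. Tll1, a tolloid-like protease that trims procollagens, had 4.30, 7.0 and 7.92 CPM in SH and 54.1, 70.3 and 122 CPM in KA neurons. The groups were far apart (logFC 3.68, SE 0.60, FDR = 0.037), but the FDR was 0.31 without SH neurons replicate 1 and 0.43 without the libraries of replicate 3. Tgm2, a transglutaminase that cross-links matrix proteins, had 4.42, 8.13 and 3.91 CPM in SH and 14.6, 27.1 and 66.8 CPM in KA glia (2.72, SE 0.62, FDR = 0.12). With the block, Tll1, Bmp1, the founding procollagen C-proteinase, and Loxl1, a lysyl oxidase, were higher in glia too (FDR = 0.0022, 0.0017 and 0.052) and Pcolce2 was lower (FDR = 0.12).

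Of 9 genes for collagen degradation, 1 was lower in glia, the gelatinase Mmp2, with 19.3, 20.3 and 31.8 CPM in SH and 5.82, 6.0 and 7.25 CPM in KA (logFC -1.90, SE 0.48, FDR = 0.19). Of 10 collagen receptors, 1 was higher in glia, the integrin subunit Itga1, with 15.4, 14.5 and 10.4 CPM in SH and 40.2, 33.4 and 32.0 CPM in KA (1.39, SE 0.35, FDR = 0.19). Neither pair of groups overlapped. All 10 receptors had a positive logFC in neurons (median 0.59), as did 18814 of the 37598 genes tested, where 0 passed (edgeR, 1 with an unadjusted p under 0.05) and, with the block, Itga2, Itga11 and Adgrg1 did (FDR = 0.20, 0.052 and 0.046). In glia, the block added Itga11 as higher (FDR = 0.034) and Adgrg1, an adhesion receptor for collagen III, as lower (-0.94, FDR = 0.041).

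Of 7 proteoglycans that coat collagen fibers, 1 was lower in neurons and 1 in glia. Ogn had 20.9, 8.73 and 16 CPM in SH and 2.73, 3.12 and 1.38 CPM in KA neurons (logFC -2.66, SE 0.57, FDR = 0.13). Prelp had 13.9, 17.5 and 34.5 CPM in SH and 6.26, 3.10 and 1.4 CPM in KA glia (-2.63, SE 0.65, FDR = 0.17). With the block, Dcn (-1.54, FDR = 0.0040) and Lum (-1.71, FDR = 0.099) were lower in neurons as well. Dcn, Lum and Ogn also belong to the fibroblast list, whose sum was 126, 77.8 and 78.7 CPM in SH and 55.8, 41.8 and 29.9 CPM in KA neurons and stood at 52.3 to 91.3 CPM in SH and 34.6 to 83.3 CPM in KA glia. Its part in the result was not tested.

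These 5 calls without the block were narrow. Tgm2 was lost when replicate 1 or 3 of SH glia or replicate 3 of KA glia was left out (FDR = 0.30 to 0.50), and Ogn without SH neurons replicate 1 or 3 or any KA neurons library (FDR = 0.27 to 0.97). Mmp2 was lost without any 1 KA glia library, replicate 1 or 3 of SH glia, or replicate 3 of KA neurons (FDR = 0.26 to 0.90). Itga1 was lost without SH glia replicate 3 or any KA library of either fraction (FDR = 0.26 to 0.91), and Prelp without replicate 1 or 3 of SH glia, replicate 2 or 3 of KA glia, or replicate 2 of KA neurons (FDR = 0.26 to 0.86). Without the 2 low-input libraries, the 4 glial calls were lost too (FDR = 0.49 to 1.00), as were those of Col16a1 and Col12a1 (FDR = 1.00 for both). Each of the 5 genes kept its direction in all alternatives.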

How the data were processed

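The 12 mRNA libraries of the study were analysed, in the groups given by the labels. The authors trimmed reads with Trim Galore 0.4.3, aligned them to mm10 with Rsubread and counted uniquely mapped reads per gene with featureCounts (default settings, which ignore strand) and GENCODE M16. The deposited values are these whole-number counts, without normalization. Libraries were sequenced on NextSeq500 or HiSeq3000, and which library ran on which is not given in the sources used here. Bisulfite sequencing samples were not used here.

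Symbols and exons came from GENCODE M21 (105 of 53379 genes lacked a symbol). All 12 libraries were fitted in edgeR 4.0.16 (R 4.3.3; filterByExpr by the 4 groups, minimum count 10, total at least 15; TMM scaling, quasi-likelihood with legacy=TRUE, 4 group means), with Benjamini-Hochberg FDR over 37598 genes. The FDR threshold was 0.25 for KA against SH, as in the study, and 0.05 between fractions. The SE was obtained by dividing logFC, without its sign, by the root of the F statistic. The fit was tested on simulated data. CPM used effective library sizes. Libraries of a group are separate pools of mice. Without a block, p-values measure the spread between libraries within groups, estimated over both fractions together. Both fractions of a pool were entered there as separate libraries, although they come from the same mice. With a block, p-values measure the spread left after the replicate number or the pool is taken out.

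KA and SH libraries of one replicate number deviated together (correlation across genes 0.399, 0.264 and 0.551 in neurons, 0.457, 0.543 and 0.764 in glia for replicates 1, 2 and 3). Pairs of different numbers gave -0.502 to 0.142 in neurons and -0.671 to 0.349 in glia. In glia, replicates 1 and 2 also deviated together across numbers (0.349 for KA 1 with SH 2, 0.222 for KA 2 with SH 1), apart from replicate 3. Fits with the replicate number as a block, and with the pool as a block for comparisons that involve both fractions, were set beside the unblocked ones, though the paper describes no pairing. Other alternatives were RLE scaling, DESeq2, other filters on low counts, edgeR 4 dispersions, separate fits of the cell types, other FDR thresholds and fits without single libraries, without the low-input libraries or without replicate 3. DESeq2 1.42.0, limma 3.58.1 (through edgeR), Python 3.11.15 and matplotlib 3.10.9 were used otherwise. Named were every collagen past the threshold after KA or in the difference between fractions, with the block or without (at most 8 added by the block per fraction), the 3 highest per kb in each fraction, the chains of collagens I, III, IV and VI, and every pathway gene past the threshold. Genes that passed between fractions, or that the block added in the pathway lists, were also named after their values were seen. The genes, lists and tests were chosen with earlier results of these data known.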

Additional observations from a re-analysis of the deposited data

Results flagged for a closer look

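The change after KA differed between neurons and glia for 2 collagens when the pool was fitted as a block and for 1 more with the replicate number as the block. For Col16a1 the logFC in glia minus that in neurons was 2.08 (SE 0.31, FDR = 0.022). In glia, every KA library of Col16a1 lay above every SH library, so that any pairing of replicates shows an increase. For Col27a1 the difference was -3.35 (SE 0.42, FDR = 0.0084), and its libraries in neurons were separated in the same way. Without the block, neither difference passed the threshold (FDR = 1.00 for Col16a1 and 0.44 for Col27a1). For Col11a2 the difference was -2.02 with the replicate number as the block (SE 0.39, FDR = 0.049). It did not pass with the pool as a block (FDR = 0.30) or without a block (FDR = 1.00). In glia, Col11a2 was lower in KA in 3 of 3 replicate pairs, although the groups overlapped.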

How the results depend on the processing

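Col27a1 stayed past the threshold in neurons in all 24 alternatives, 0 collagens were lower in neurons in any, and between fractions 9 to 13 were higher and 7 to 12 lower. The count of collagens higher in glia (2) moved most: it was 7 with the replicate block, 5 with DESeq2 or with at least 10 counts in every library, 1 with RLE size factors or without the 4 libraries of replicate 3 (an alternative chosen after seeing the data), and 0 in separate fits of the cell types, with no filter, at an FDR threshold of 0.05 and without the 2 low-input libraries. Leaving out 1 library gave 0 to 2. The study itself, which treated neurons and glia separately, listed Col16a1 and Col7a1, but not Col12a1, as upregulated in glia at an FDR of 0.25. It listed Col27a1 as upregulated in neurons. Collagens lower in glia (0) numbered 2 with the block and 1 with DESeq2 or with 10 counts in every library. Collagens higher in neurons (1) numbered 3 with the block. Of the differences between fractions (0), 1 was higher with the pool as a block, and 1 was lower with that block, with DESeq2, with no filter and with 10 counts in every library, while 1 was higher and 2 were lower with the replicate number as the block, also chosen after seeing the data.

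The values that changed sign had FDR between 0.80 and 1.00 in the fit of all libraries without a block. Col6a6 between fractions was 0.33 with the pool as a block (FDR = 0.66) and 0.18 without the low-input libraries, against -0.15, and -0.44 to 0.12 with 1 library left out. Leaving out 1 library gave -0.21 to 1.24 for Col16a1 in neurons, -0.47 to 0.30 for Col27a1 in glia, -0.45 to 0.028 for Col4a3 and -0.86 to 0.082 for Col4a6 between fractions, and Col4a3 was -0.65 without replicate 3. The cause was not tested. The blocks changed no call of the collagens after KA, or of their differences, other than those given. RLE and DESeq2 size factors moved the median of all genes between fractions from -0.15 to -0.30. Over all genes, calls after KA (105 higher and 23 lower in neurons, 166 and 115 in glia) were 730 and 417, and 1305 and 1566, with the block, 409 and 247, and 129 and 17, in separate fits, 305 and 151, and 365 and 645, with DESeq2, 194 and 59, and 287 and 228, with edgeR 4 dispersions, 329 and 136, and 443 and 760, with 10 counts in every library, and 73 and 6, and 40 and 1, without the low-input libraries. At an FDR of 0.05 they were 17 and 1, and 51 and 11. With 3 libraries per group the precision was lowest for Col8a2 (2 to 38 counts per library).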
